A study of Mus musculus with 4 samples.

Results

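The 33 myelin and oligodendrocyte lineage genes described here were taken by name from a table of 32285 genes, and all 33 were found in it with at least 1 molecule in every library. They were grouped by role into 11 proteins of the myelin sheath and its membranes, 6 enzymes of myelin lipids and lysolipids, 6 transcription factors, 6 receptors and intracellular signalling proteins, and 4 proteins of the cytoskeleton, iron transport and pH. The data are single-nucleus RNA counts from micropunches of the mouse PVN (the paraventricular nucleus of the hypothalamus), collected at zeitgeber time 8 (ZT8, in the light phase) and zeitgeber time 20 (ZT20, in the dark phase). Each of the 4 libraries, 2 for each time, was made from nuclei of 5 pooled PVN punches of male C57Bl6 mice labelled as 10 weeks old, and the labels name no transgene, drug or other treatment beside the time. The labels do not say whether libraries of the same time came from separate days or preparations, so p-values measure the spread between these libraries, which may be technical.

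Myelin is the lipid-rich sheath that oligodendrocytes wrap around axons. Precursor cells (OPCs) carry the receptor Pdgfra and the transcription factors Olig1, Olig2 and Sox10. As they commit to differentiate they pass through a short stage marked by Gpr17, Bcas1 and Enpp6, and then switch on Myrf and the genes of the sheath. Messenger RNAs of some sheath proteins, that of Mbp above all, are carried out into the processes of the cell, where the protein is made, so a nucleus holds only part of the cell's myelin RNA. Tissue punches also release RNA from broken cells, which is captured in droplets of other nuclei.

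The libraries held 57970649 and 69223344 UMIs (unique molecular identifiers, each counting 1 captured RNA molecule) at ZT8 and 63558166 and 61933800 at ZT20, and 6053 to 8667 nuclei per library were kept. Clusters built without the 33 genes gave 2916 oligodendrocyte-like nuclei (15 of 16 oligodendrocyte markers detected), 549 OPC-like nuclei and 10686 neuron-like nuclei, all named from markers that are not among the 33. The times differed in more than the myelin genes. The 185 tanycyte-like nuclei, a cell type of the wall of the third ventricle, were split 1, 1, 91 and 92 over the libraries (ZT8, then ZT20). Barcodes under 2000 UMIs outside every named class (10646 in all, called low-UMI barcodes below) made up 24.8% ± 0.0989 (SD, n = 2) of the barcodes at ZT8 and 41.1% ± 5.26 (SD, n = 2) at ZT20. Between 10 and 25 barcodes were shared by any pair of libraries. What was dissected, the share of low-UMI barcodes and the time of day cannot be told apart in this design.

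Most members were highest in oligodendrocyte-like nuclei. Of the 33 genes, 25 had their highest level there among the 10 named classes, and for all 25 the lowest oligodendrocyte-like library lay above the highest library of the next class. Together the 33 genes took 2.34 to 2.44% of the UMIs of oligodendrocyte-like nuclei, against 0.345 to 0.487% in OPC-like nuclei, 0.282 to 0.403% in low-UMI barcodes and 0.0339 to 0.0397% in neuron-like nuclei. Mbp, the myelin basic protein that compacts the sheath, stood at 3073 ± 110.3 CPM (a counts-per-million scale over the UMIs of a library in that class; SD, n = 4 libraries) in oligodendrocyte-like nuclei, at 382 ± 123 in OPC-like nuclei and at 50.7 ± 0.697 in neuron-like nuclei. Prr5l, a binding partner of the kinase complex mTORC2, stood at 2035 ± 94.1 in oligodendrocyte-like nuclei against 4.82 ± 4.80 in OPC-like nuclei. Aspa, the enzyme that splits N-acetylaspartate into acetate for lipid synthesis, stood at 994 ± 22.8 against 4.03 ± 2.32.

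The other 8 genes did not have their highest level in oligodendrocyte-like nuclei. Gpr17, a receptor of committed precursors, stood at 464 ± 79.4 CPM (SD, n = 4) in OPC-like nuclei and at 8.28 ± 1.56 in oligodendrocyte-like nuclei. Olig1 and Olig2, the basic helix-loop-helix factors that set up the lineage, were likewise higher in OPC-like nuclei, at 251 ± 25.9 against 130 ± 8.94 for Olig1 and at 120.0 ± 12.8 against 35.3 ± 5.01 for Olig2. For Sox10, Enpp6 and Bcas1 the OPC-like mean was the higher, but the libraries of OPC-like and oligodendrocyte-like nuclei overlapped. Ndrg1, a stress-responsive protein of myelinating cells, was highest in endothelial-like nuclei, at 329 ± 26.4 against 193 ± 14.6. The homeobox factor Nkx6-2 stood at 72.4 ± 7.95 in astrocyte-like and 64.4 ± 3.36 in oligodendrocyte-like nuclei, and the libraries of these classes overlapped.

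**Figure D1:**
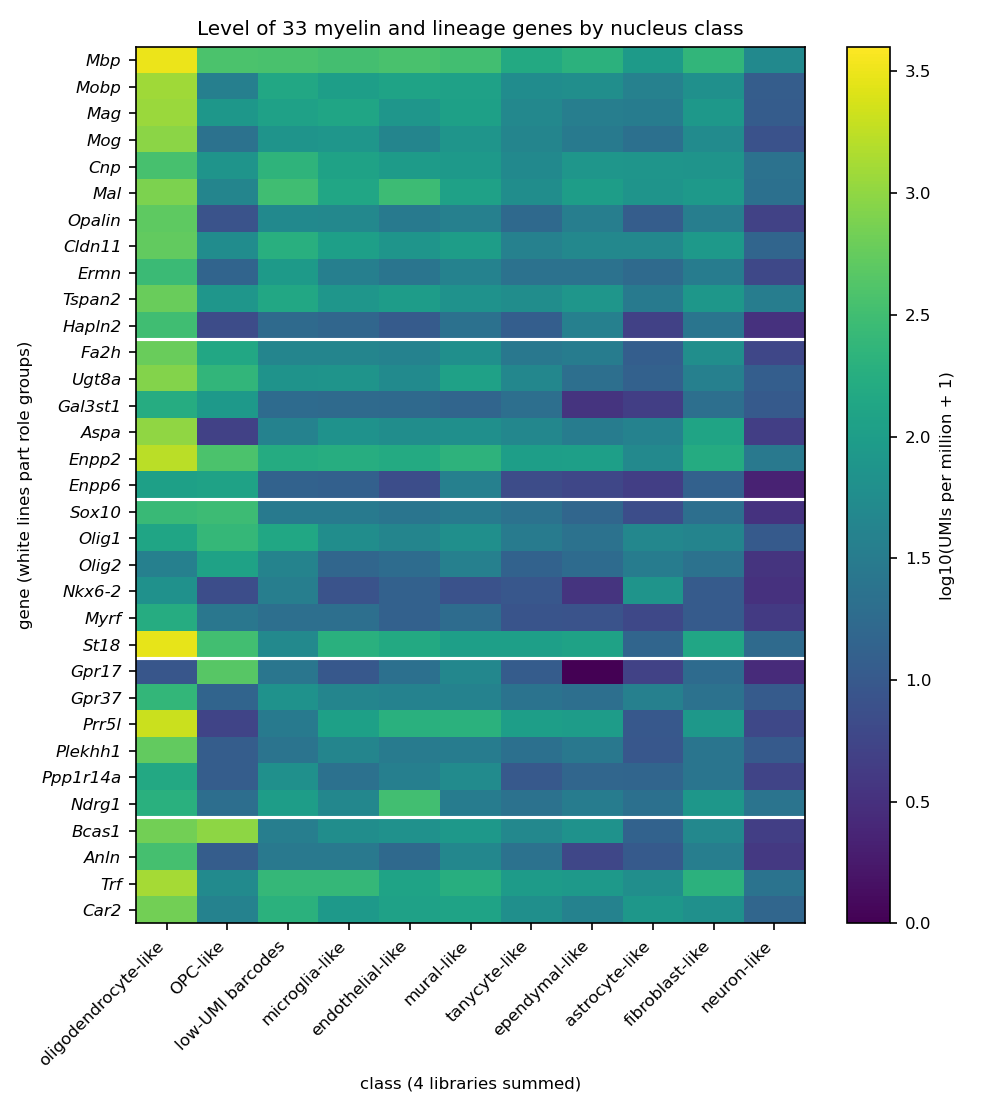
Levels of the 33 genes (rows, white lines between role groups) in 10 named classes and the low-UMI barcodes (columns), as log10 of CPM plus 1, with the 4 libraries summed. The oligodendrocyte-like column is the brightest for 25 genes, and the OPC-like column for 6, among them Gpr17, Olig1 and Olig2.

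The genes differed widely in how far their level in nuclei exceeded that in low-UMI barcodes, which hold free RNA and poor nuclei. Set against low-UMI barcodes, the level in oligodendrocyte-like nuclei was 72.8 times as high for Prr5l and 60.5 times for St18, a zinc finger transcription factor, but only 1.62 times for Cnp, the sheath enzyme that hydrolyses cyclic nucleotides, and 2.47 times for the lipid-raft protein Mal. Across the 33 genes the median ratio was 8.69. These ratios pool the libraries, which hold the classes in unequal numbers. Within single libraries the Prr5l ratio ran from 49.9 to 92.3 and that of Cnp from 1.32 to 1.53, below its pooled value. For Olig1 (0.941) and Gpr17 (0.333) the low-UMI level was the higher, also within every library. For Olig2 the pooled ratio was 0.925 and the libraries ran from 0.742 to 1.21, on both sides of 1. Long genes had high ratios more often than short ones. The 11 longest genes, which span 48.7 to 374 kb, had a median ratio of 12.7, the 11 of middle length one of 8.58, and the 11 shortest, which span 2.16 to 14.5 kb, one of 2.90. Over the 33 genes the correlation of the logarithms of span and ratio was r = 0.67 (Spearman's rho 0.56), and r = 0.58 without Olig1 and St18, the genes farthest from the median span. The points share their libraries, and how introns were counted is not given in the sources used here, so the correlation is a description. Hapln2, a link protein of the node of Ranvier, was high at a short span (19.1 at 5.83 kb), and Ndrg1 low at a longer one (1.91 at 40.3 kb).

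**Figure D2:**
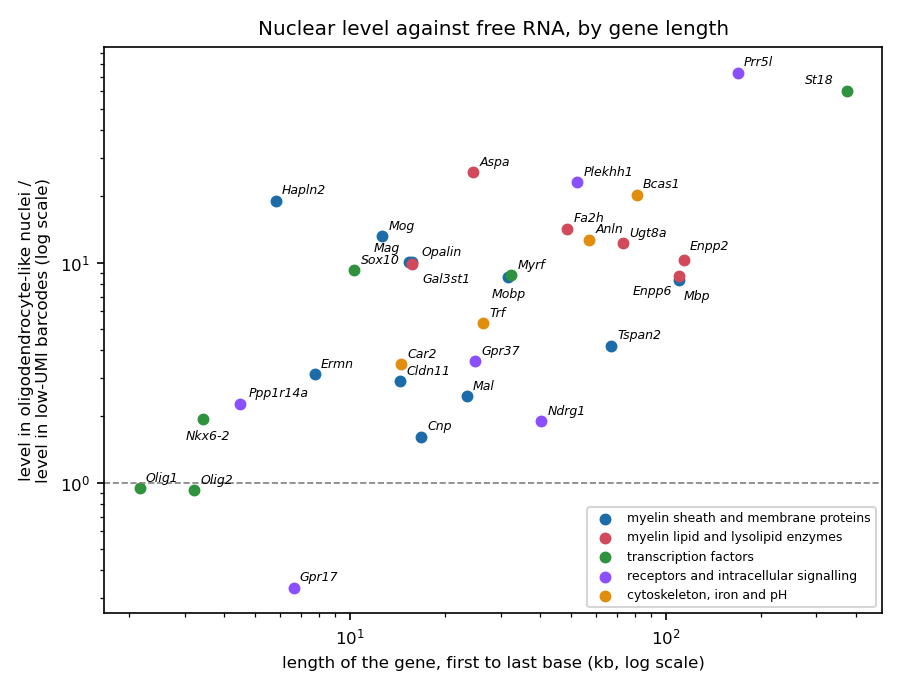
Ratio of the level in oligodendrocyte-like nuclei to that in low-UMI barcodes (vertical, log scale) against the length of the gene on the genome (horizontal, kb, log scale), 1 point for each of the 33 genes, coloured by role. The dashed line marks equal levels; Prr5l (72.8) and St18 (60.5) stand highest, and Gpr17 (0.333), Olig2 and Olig1 lie under the line.

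Sub-clusters of the lineage, again formed without the 33 genes, differed in which members were highest. No order of the sub-clusters was computed. Sub-cluster 3 (492 nuclei) had the highest level of 8 of 9 OPC markers. Sub-cluster 5 (58 nuclei, 19, 17, 7 and 15 over the libraries) had the highest level of 9 of 10 markers of committed or newly formed oligodendrocytes and is called committed-like. Sub-clusters 1 (1912 nuclei, led by Ptgds and Il33), 2 (908 nuclei, led by Cntn3 and Agmo) and 4 (95 nuclei, led by Man1a and Synpr) made up nearly all of the oligodendrocyte-like nuclei. Of the 33 genes, 4 were highest in the committed-like nuclei. Bcas1, an early protein of myelinating processes, stood there at 4432, 4345, 4855 and 4204 CPM (ZT8, then ZT20), 5.56 times the next sub-cluster. Gpr17 stood at 1087, 1130, 1594 and 1191, and Enpp6, a choline phosphodiesterase of newly forming cells, at 889.8, 869, 1054 and 872. The pooled level of Enpp6 was 285 CPM in sub-cluster 2, against 25.6 in sub-cluster 1 and 18.5 in sub-cluster 4. For these 3 genes every committed-like library lay above all libraries of the next sub-cluster, while for Sox10, the master regulator present from precursor to mature cell, the libraries overlapped.

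St18 and Mbp were high in the committed-like nuclei, at 2431 and 2538 CPM in the pooled libraries, against 17.9 and 84.8 in OPC sub-cluster 3. The myelin sheath genes Mobp (99.1), Mog (119) and Opalin (12.4) were not: their pooled levels in sub-cluster 4 were 2447, 1383 and 1018. The sheath genes Mag and Cldn11 lay between, at 555 and 253 in the committed-like nuclei. They stood at 17.5 and 30.5 in sub-cluster 3 and at 1601 and 816 in sub-cluster 4. Sub-cluster 4 is small, with 31, 41, 15 and 8 nuclei over the libraries (ZT8, then ZT20). It held the highest level of 13 genes. For 8 of these all libraries lay above those of the next sub-cluster: Mbp, Mobp, Mag, Mog, Opalin, Cldn11, Tspan2 and St18. Sub-cluster 2 held the highest level of 12 genes, and 4 of these had no overlap with the next sub-cluster. Anln, a scaffold of septins in the sheath, stood at 660 in sub-cluster 2 and 216 in sub-cluster 1, Hapln2 at 505 and 241, Trf (the iron carrier transferrin) at 1673 and 1201, and Prr5l at 2571 and 1913. Opalin, a sialylated membrane glycoprotein, ran the other way, at 282 in sub-cluster 2 and 561 in sub-cluster 1. These levels describe clusters made from the same nuclei, so no test is given.

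**Figure D3:**
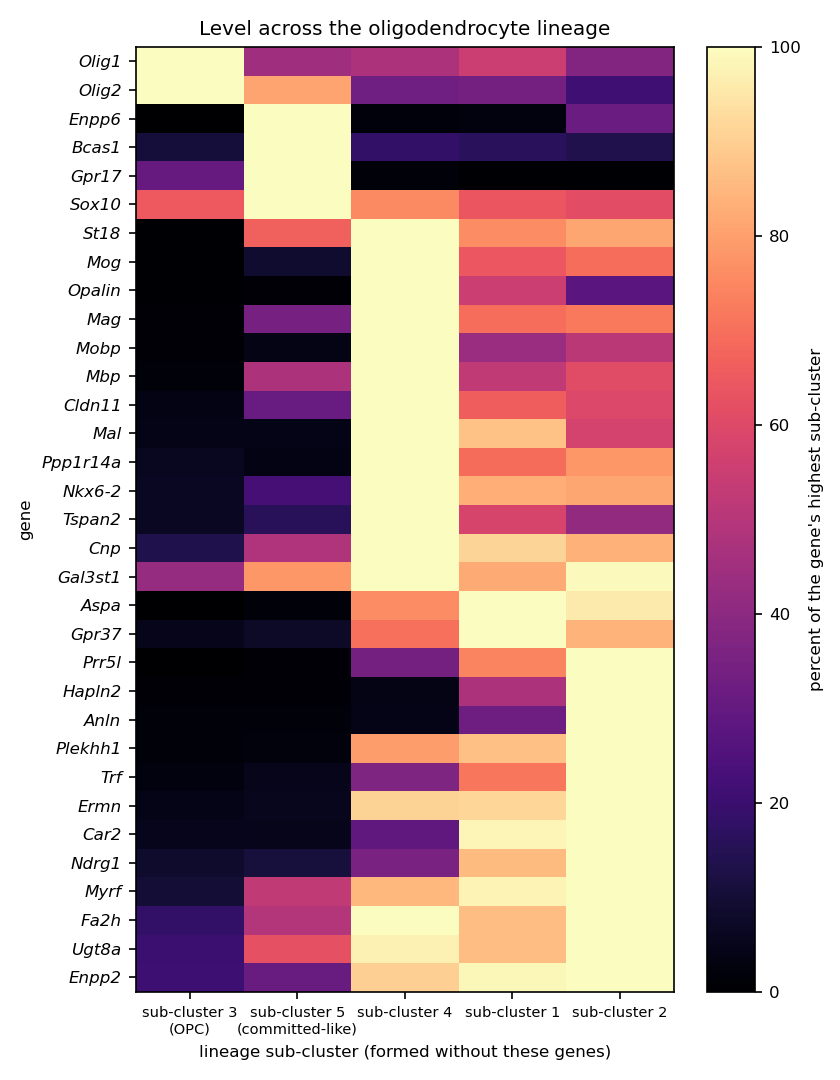
Level of each of the 33 genes (rows) in 5 sub-clusters of the oligodendrocyte lineage (columns), as a percent of that gene's highest sub-cluster, with the libraries summed. Olig1 and Olig2 peak in sub-cluster 3, Enpp6, Bcas1, Gpr17 and Sox10 in the committed-like sub-cluster 5, 13 genes in sub-cluster 4, 2 in sub-cluster 1 and 12 in sub-cluster 2.

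Within oligodendrocyte-like nuclei the members moved little and in both directions between ZT8 and ZT20. Their summed level was 24371 and 24278 CPM at ZT8 and 23433 and 23383 at ZT20. Of the 33 genes, 7 were lower at ZT20 and 5 were higher at an adjusted p under 0.05 (edgeR's quasi-likelihood test, Benjamini-Hochberg adjustment over 12136 genes), beside 4.89% lower and 5.57% higher among all genes tested. The median change of the members was -0.05 on the log2 scale, and the largest was 1.36-fold. The lower genes were 4 of the 11 sheath proteins (Cnp, Opalin, Cldn11 and Mog), 2 of the 6 receptors and signalling proteins (Ppp1r14a and Gpr37) and 1 of the 6 transcription factors (St18). The higher ones were Ermn among the sheath proteins, Enpp2 and Ugt8a among the 6 enzymes, and Anln and Car2 among the 4 proteins of cytoskeleton, iron and pH.

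Cnp (chr11:100574904-100591729, plus strand; coordinates here and below are GRCm38 with GENCODE M21 genes) stood at 396 and 401 CPM at ZT8 and at 284 and 293 at ZT20. The groups did not overlap, and the level fell by 0.44 on the log2 scale (SE 0.06, edgeR adjusted p = 1.88e-10). Dnajc7 overlaps Cnp on the other strand, and the strand setting of the counting is not given in the sources used here. Opalin (chr19:41061710-41077113, minus strand) stood at 544 and 545 at ZT8 and 427 and 421 at ZT20, so that both night libraries lay below both day libraries; it fell by 0.33 (SE 0.05, edgeR adjusted p = 9.72e-08). Cldn11, the tight junction claudin that seals the layers of myelin (chr3:31149920-31164324, plus strand), stood at 588 and 573 against 473 and 481, and fell by 0.26 (SE 0.05). Mog, a surface glycoprotein of the outermost layer (chr17:37010743-37023398, minus strand), stood at 1021 and 986 against 828 and 875, and fell by 0.21 (SE 0.04). These 4 sheath genes were separated by library, but so were most members. Of the 33, 17 were separate and lower at ZT20, and 7 separate and higher. The share of all genes separated in this way was not computed. Mbp, Mobp and Mag, the adhesion protein of the innermost layer, did not pass the test at -0.06, -0.03 and -0.01.

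St18 (chr1:6487231-6860940, plus strand) stood at 3043 and 3015 CPM at ZT8 and 2646 and 2736 at ZT20, a fall by 0.15 on the log2 scale (SE 0.03, edgeR adjusted p = 0.000390). The calls of St18 and Mog were lost within sub-cluster 2 alone, at -0.11 (edgeR adjusted p = 0.305) and -0.15 (edgeR adjusted p = 0.318). Sox10, the next transcription factor by p, had a change of 0.15 (SE 0.07) that did not pass (edgeR adjusted p = 0.158). Gpr37, an orphan receptor that restrains differentiation (chr6:25665878-25690729, minus strand), stood at 264 and 251 against 212 and 205, with a change of -0.27. Ppp1r14a, an inhibitor of myosin phosphatase (chr7:29289308-29293801, plus strand), stood at 159 and 156 against 134 and 115, with a change of -0.30. The calls of Gpr37 and Ppp1r14a were lost with DESeq2 and when ZT8 replicate 1 or ZT20 replicate 2 was left out, and the latter was lost within either large sub-cluster.

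Among the higher genes, Enpp2, or autotaxin, the enzyme that makes lysophosphatidic acid (chr15:54838901-54952892, minus strand), stood at 1568 and 1572 CPM at ZT8 and 1885 and 1876 at ZT20. It rose by 0.29 on the log2 scale (SE 0.04, edgeR adjusted p = 1.81e-12). Anln (chr9:22332012-22389188, minus strand) stood at 312 and 334 against 389.9 and 390.1, and rose by 0.30 (SE 0.06, edgeR adjusted p = 4.31e-05). Both night libraries exceeded both day libraries for these genes. Ermn, a cytoskeletal linker of the sheath (chr2:58045113-58052864, minus strand, overlapped on the other strand by Galnt5), stood at 264 and 269 against 304 and 299. Ugt8a, which makes galactosylceramide (chr3:125865271-125938619, minus strand), stood at 818 and 831 against 875 and 905. Car2, a carbonic anhydrase (chr3:14886273-14900770, plus strand), stood at 652 and 661 against 745 and 702. The changes of Ermn, Ugt8a and Car2 were 0.20, 0.14 and 0.17. Calls of Ermn and Ugt8a were lost whichever library was left out, and that of Car2 was kept only without ZT20 replicate 2.

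**Figure D4:**
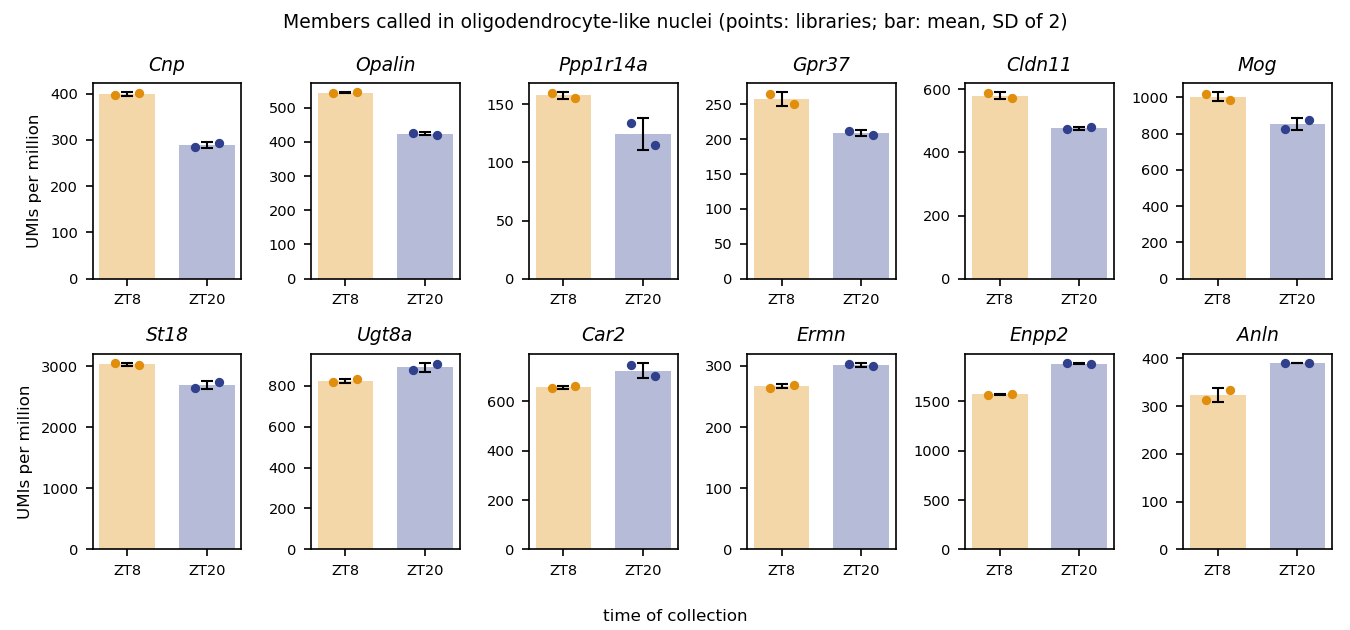
CPM of the 12 genes called in oligodendrocyte-like nuclei, by time of collection: points are libraries, bars their mean and whiskers the SD of 2 libraries. The 7 lower genes run from Cnp to St18 and the 5 higher ones from Ugt8a to Anln, and no change exceeds 1.36-fold.

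Free RNA and the makeup of the class moved with these differences. From neuron marker UMIs, free RNA was estimated at 25.1 and 25.4% of the UMIs of oligodendrocyte-like nuclei at ZT8 and 23.6 and 23.6% at ZT20. The estimate takes all neuron marker UMIs in these nuclei as free RNA. It also takes low-UMI barcodes as free RNA alone, although they hold poor nuclei too. With that amount subtracted, Cnp, Opalin, Cldn11, Mog and St18 kept their calls as lower and Enpp2 and Anln as higher, and the other 5 genes lost theirs at changes of -0.26 (Gpr37), -0.24 (Ppp1r14a), 0.19 (Ermn), 0.12 (Ugt8a) and 0.15 (Car2). Sub-cluster 1 made up 62.0% ± 0.853 (SD, n = 2) of the oligodendrocyte-like nuclei at ZT8 and 72.0% ± 2.37 at ZT20, and sub-cluster 2 made up 34.1% ± 1.16 and 25.9% ± 1.68 (exact permutation p = 0.333 for each, the smallest that 2 libraries against 2 allow). Within sub-cluster 1 alone Cnp changed by -0.46, Opalin by -0.32, Enpp2 by 0.28 and Anln by 0.57, and within sub-cluster 2 alone by -0.55, -0.55, 0.26 and 0.32. Each of these 8 values was called in its direction. Cnp, Opalin, Cldn11, Enpp2 and Anln were called in the same direction in all 16 alternatives, which include each library left out.

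Promoter sequences were looked up, to show what stands before genes with a time difference. RefSeq windows on GRCm38.p6 were found for 21 of the 33 genes (28 windows), and the 250 bases before each start were searched on both strands. The motifs were the SOX cores ACAAAG and ACAATG, the E-boxes CAGCTG and CATCTG, the MYRF motifs CTGGCAC and CTGGTAC, and TATAAA, and matches of different motifs may share bases. Genes that were lower at ZT20 (Cnp, Opalin and Mog), a gene that was higher (Ermn) and Mobp, which was not called, are shown 5′ to 3′ with the matches in capitals. Their windows are Cnp chr11:100574689-100574938 (plus strand), Opalin chr19:41077114-41077363 (minus strand), Mog chr17:37023399-37023648 (minus strand), Ermn chr2:58052865-58053114 (minus strand), Mobp chr9:120149492-120149741 (plus strand). They were picked after the matches were seen, and the windows of Cldn11, Anln and Ugt8a, which were also called, hold none of these motifs.
Cnp: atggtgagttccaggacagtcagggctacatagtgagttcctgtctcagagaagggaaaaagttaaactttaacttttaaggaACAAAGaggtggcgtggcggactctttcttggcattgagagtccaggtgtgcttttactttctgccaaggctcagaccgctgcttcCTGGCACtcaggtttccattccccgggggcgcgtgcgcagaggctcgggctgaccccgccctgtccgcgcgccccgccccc
Opalin: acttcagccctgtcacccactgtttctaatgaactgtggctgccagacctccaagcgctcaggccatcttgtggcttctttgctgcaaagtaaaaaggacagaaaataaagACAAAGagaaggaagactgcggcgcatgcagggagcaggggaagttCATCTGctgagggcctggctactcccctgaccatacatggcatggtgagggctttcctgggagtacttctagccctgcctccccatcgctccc
Mog: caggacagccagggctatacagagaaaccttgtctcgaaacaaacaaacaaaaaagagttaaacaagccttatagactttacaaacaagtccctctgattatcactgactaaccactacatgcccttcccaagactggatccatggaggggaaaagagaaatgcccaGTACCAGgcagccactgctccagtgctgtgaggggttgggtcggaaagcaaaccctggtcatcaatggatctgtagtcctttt
Ermn: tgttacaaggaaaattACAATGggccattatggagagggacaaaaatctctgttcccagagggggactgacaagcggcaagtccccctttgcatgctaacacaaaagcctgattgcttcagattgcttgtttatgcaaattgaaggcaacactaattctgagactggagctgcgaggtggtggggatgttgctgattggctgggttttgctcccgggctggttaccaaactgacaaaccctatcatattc
Mobp: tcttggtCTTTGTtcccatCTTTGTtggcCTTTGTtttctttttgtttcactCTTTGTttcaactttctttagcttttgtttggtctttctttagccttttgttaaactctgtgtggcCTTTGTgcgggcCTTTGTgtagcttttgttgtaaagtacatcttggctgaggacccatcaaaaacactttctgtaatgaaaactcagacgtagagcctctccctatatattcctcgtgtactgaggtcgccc
The Mobp window holds 6 copies of a SOX core, all as CTTTGT on the printed strand. The core ACAAAG was in 7 of 28 member windows and in 16.5% of all 32851 windows, and ACAATG in 8 (28.6%) and 10.7%. CTGGCAC was in 4 member windows (14.3%, of the genes Cnp, Hapln2 and Mag) and 4.19% of all, and CTGGTAC in 1 (3.57%, that of Mog) and 1.83%. The E-boxes CAGCTG and CATCTG were in 10.7 and 21.4% of member windows and 13.0 and 14.4% of all. TATAAA was in 10.7 and 12.4%. Windows of the same gene can share bases, and a match is a description of these letters, not a bound site.

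Genes next to the members in the same biology also went both ways in oligodendrocyte-like nuclei, where 5.57% of all genes tested were higher and 4.89% lower. Each list is small, and the counts below are a description beside those shares. Of 10 tested genes of gap junctions and axon contact, 3 were higher and 1 was lower at ZT20: Mpzl1 (1.10 on the log2 scale, SE 0.08), the connexin Gjc3 (0.53, SE 0.05) and Nkain2 (0.13, SE 0.03) rose, and Nfasc, the neurofascin of nodes and paranodes, fell by 0.30 (SE 0.05). Gjc3, and Pllp below, are also among the markers that named the class. Of 13 other myelin lipid genes, Sgms1 (0.57) and Scd2 (0.12) rose, while Pllp and Elovl7 fell by 0.59 and 0.31. Of 10 growth factor and adhesion receptors, Lpar1, a receptor for the product of Enpp2, rose by 0.28 (SE 0.07) and Adgrb3 by 0.25 (SE 0.07), and Lingo1 and Fgfr2 fell by 0.63 and 0.13. Of 9 tested genes of oligodendrocyte stress, Ptgds (0.95, SE 0.04), Cryab (0.66) and Hspa5 (0.66) rose, and the glucocorticoid-induced genes Sgk1 and Fkbp5 fell by 0.50 and 0.87.

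A few early-lineage genes fell, and most did not pass. Lhfpl3, Pcdh15 and Tnr of the 9 precursor genes fell by 0.65, 0.26 and 0.51, Cnksr3 and Fyn of 7 tested early differentiation genes by 0.61 and 0.34, and Tcf7l2 of 12 tested lineage regulators by 0.22. No gene of these 3 lists was called higher, and the list medians were -0.37, 0.04 and -0.03. Tnr was at 0.0084 when nuclei were chosen by marker UMIs, and Tcf7l2 at 0.24 with free RNA subtracted, neither of them called. That choice of nuclei uses the OPC markers, Tnr among them, so the Tnr value there is not separate from the choice. The OPC markers are the same 9 genes as the precursor list, so their sum is not separate from the falls of Lhfpl3, Pcdh15 and Tnr. It stood at 472 and 504 CPM at ZT8 and 392 and 372 at ZT20 (9 genes, none at 0). Summed markers of other cells were lower in these nuclei too: those of neurons stood at 1436 and 1471 against 1250 and 1262 (9 genes, none at 0). Markers of mural cells stood at 40.8 and 41.3 against 6.68 and 11.3 (8 genes) and those of endothelial cells at 26.3 and 23.4 against 11.3 and 10.1 (9 genes), while the libraries of the times overlapped for astrocyte and microglia markers. Their part in the fall of the early-lineage genes was not tested.

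In OPC-like nuclei 26 of the 33 members passed the filter on low counts, and 1 was called. Gpr17 stood at 392 and 415 CPM at ZT8 and at 478 and 569.8 at ZT20, and rose by 0.40 on the log2 scale (SE 0.11, edgeR adjusted p = 0.0407 over 9854 genes, of which 0.873% were higher and 0.274% lower). The call was lost with DESeq2, with the stricter filter on nuclei and when ZT8 replicate 1, ZT8 replicate 2 or ZT20 replicate 2 was left out. In sub-cluster 3 alone, without the committed-like nuclei, Gpr17 stood at 253 and 273 against 418 and 469, and the change was 0.77 on the log2 scale, called higher by edgeR. Committed-like nuclei, in which Gpr17 is higher still, made up 14.5, 13.2, 4.83 and 10.4% of the OPC-like nuclei. Lims2 overlaps Gpr17 on the other strand.

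The other 25 tested members did not pass in OPC-like nuclei, and their values lay on both sides of 0. The 9 tested sheath proteins had a median change of -0.52, with Cldn11 at -0.81 (SE 0.24, edgeR adjusted p = 0.0704) and Mal at -0.82 (SE 0.27). Myrf, the regulator that starts myelination, was at -0.92 (SE 0.35), Trf at -0.71 (SE 0.24) and Enpp6, a gene of the committed stage, at -0.68 (SE 0.32). Plekhh1 was at 0.98 (SE 0.59) and Gal3st1 at 0.19, and the medians were 0.17 over 4 tested receptors and signalling proteins and -0.00078 over 5 lipid enzymes. Enpp6 stood at 147 and 146 CPM at ZT8 and 54.0 and 124 at ZT20, and the low library is the one with 7 committed-like nuclei. The median change of the tested members was -0.30 in the main fit. It was -0.38 with ZT20 replicate 2 left out, and -0.07 without ZT20 replicate 1, the library of the 7 nuclei. In sub-cluster 3 alone, without the committed-like nuclei, it was -0.22 over 21 tested members, 13 of them negative. There 1 member was called higher and 0 lower, beside 79 higher and 17 lower of 9235 genes. An unadjusted p under 0.05 in edgeR was reached by 9 members there and by 6 in the main fit, in either direction. The part of the committed-like nuclei in these values was not tested. No difference between the changes of oligodendrocyte-like and OPC-like nuclei was called for any of the 33 genes (8 at an unadjusted p under 0.05), beside 0.109% higher and 0.209% lower over 11976 genes. Differences as large as 1.19 (Hapln2, SE 0.70) and -1.12 (Plekhh1, SE 0.51) were not called, so large differences between these classes could have been missed.

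Over all kept nuclei together the members were lower at ZT20 almost throughout. Of the 33 genes, 30 fell and 1, Gpr17, rose by 0.61 (SE 0.07). Olig1 and Olig2 did not pass, at 0.05 and 0.13. In this comparison 23.4% of all 21040 genes tested were called lower and 24.3% higher, so calls in either direction were common. The median change of the members was -0.54. Opalin stood at 48.3 and 49.5 CPM at ZT8 and 24.8 and 23.0 at ZT20, and fell by 1.07 (SE 0.04). Prr5l fell by 0.90, Mog by 0.89 and St18 by 0.82, and the smallest of the 30 falls was that of Ermn, by 0.20. In pooled nuclei, fewer cells of a type and less RNA per cell cannot be told apart.

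The share of oligodendrocyte-like nuclei moved in the same direction. It was 14.8 and 14.9% of kept nuclei at ZT8 (14.8% ± 0.0984, SD, n = 2) and 7.34 and 5.56% at ZT20 (6.45% ± 1.26, SD, n = 2), with exact 95% binomial intervals of 13.9 to 15.8% over the day libraries and 5.09 to 7.95% over the night ones. The groups did not overlap, but with 2 libraries against 2 the exact two-sided permutation test cannot go below p = 0.333, which is the value it gave. Among nuclei of named classes, which leaves out the low-UMI barcodes, the share was 21.9% ± 0.406 against 12.3% ± 1.09. OPC-like nuclei made up 2.07% ± 0.130 and 1.77% ± 0.149 of kept nuclei, and 3.06% ± 0.155 and 3.40% ± 0.0823 of those in named classes, so that their direction depended on the denominator.

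Low-UMI barcodes carried less myelin RNA at night as well. Their summed member level was 3995 and 4027 CPM at ZT8 and 2840 and 2821 at ZT20. Of the 33 genes, 20 were lower and 0 higher by edgeR (DESeq2 called 15 lower and 0 higher, and 24 members had an unadjusted p under 0.05 in edgeR), beside 7.97% lower and 9.39% higher among 12948 genes, and the median change was -0.51. Mag fell by 0.93 (SE 0.10), from 167 and 184 to 85.5 and 91.8. Ppp1r14a fell by 0.87, Trf by 0.71 and Enpp2 by 0.59. Summed markers of some other cells were lower in these barcodes too. Those of mural cells stood at 586 and 517 CPM at ZT8 and 46.5 and 45.2 at ZT20, those of endothelial cells at 125 and 112 against 63.7 and 61.8, and those of fibroblasts at 101 and 119.7 against 65.4 and 54.1. Their part in the myelin result was not tested. Car2 (0.04), Ermn (0.06) and Anln (-0.05), 3 of the 5 genes that rose in oligodendrocyte-like nuclei, did not pass the test here. Most low-UMI barcodes of the times fell into different clusters: 1 cluster held 1269 and 1311 barcodes at ZT8 and 109 and 145 at ZT20, and another, led by Oxt, 118 and 231 against 2774 and 3783.

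**Figure D5:**
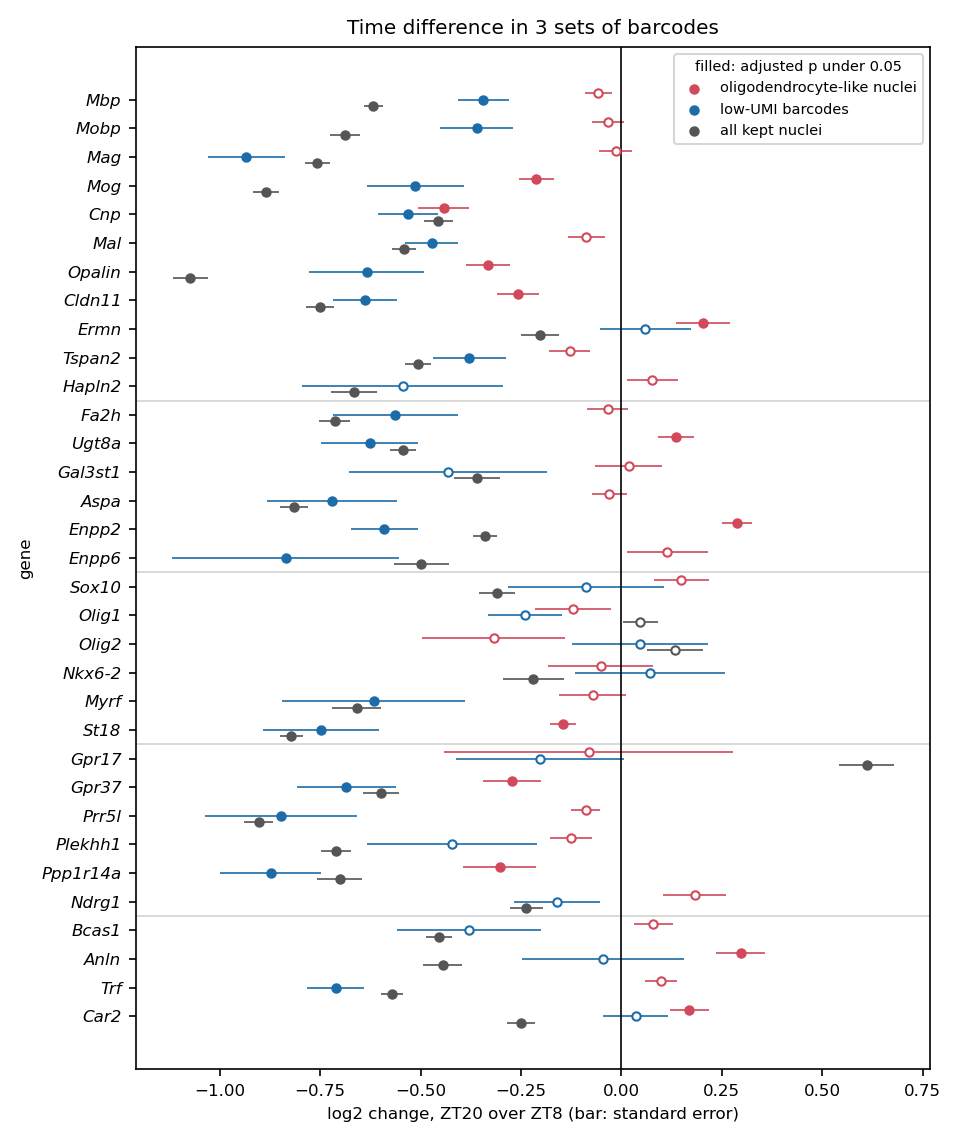
Log2 change from ZT8 to ZT20 (horizontal; bars are standard errors) of the 33 genes in oligodendrocyte-like nuclei, low-UMI barcodes and all kept nuclei; filled points passed an adjusted p of 0.05. Changes in oligodendrocyte-like nuclei lie between -0.44 and 0.30, while 30 genes in all kept nuclei and 20 in low-UMI barcodes are called lower.

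In neuron-like nuclei the members stood below their level in low-UMI barcodes. The ratio of the neuron-like to the low-UMI level was between 0.0734 and 0.156 for the middle 50% of the 33 genes (median 0.0981), and under 1 for all 33. Gal3st1, the sulfotransferase that makes sulfatide (0.548), Plekhh1 (0.400) and St18 (0.349) were the highest. Over 12 neuron-like clusters St18 ran from 3.74 to 51.7 CPM, Prr5l from 2.26 to 36.6 and Gal3st1 from 5.99 to 13.5. St18 and Prr5l were highest in the cluster led by Ebf2 and Il1rapl2. Most other members were highest there too, among them Mbp (97.0), Mobp (33.9) and Mag (25.8), but Gal3st1 was not. In microglia-like nuclei 1 library stood apart, with a summed member level of 4285 CPM in ZT8 replicate 1 against 1808 to 2160 in the other libraries. Between the times, 19 members of the 33 were lower and 1 was higher in neuron-like nuclei, beside 21.1% lower and 21.7% higher among 19635 genes. Prr5l fell by 1.17 (SE 0.12), and St18 rose by 0.59 (SE 0.09), from 14.5 and 11.9 to 21.8 and 19.0. The makeup of the neurons changed too: the cluster led by Nrxn3 and Phactr1 went from 18.5 to 37.7% of neuron-like nuclei. St18 stood at 39.7 CPM in this cluster, against a median of 10.2 over the 12 clusters. The cluster led by Ebf2 and Il1rapl2 went from 3.50 to 2.04%. The part of these clusters in the change of St18 was not tested.

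The time difference was larger, or less negative, in oligodendrocyte-like than in neuron-like nuclei for 13 members and smaller for 2 by the class-by-time term, beside 1.61% and 2.48% of 19105 genes. The difference between the changes was 1.03 (SE 0.13) for Prr5l, 0.83 (SE 0.16) for Anln, 0.70 for Aspa and 0.68 (SE 0.07) for Trf. It was -0.29 for Cnp and -0.78 (SE 0.08) for St18. For St18, oligodendrocyte-like nuclei fell while neuron-like nuclei rose, and for Cnp both fell, by 0.44 and 0.19.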

How the data were processed

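Nuclei from PVN punches were sequenced as droplet libraries, 2 at ZT8 and 2 at ZT20. The deposited matrices hold UMI counts per gene and barcode, whole numbers that were not normalized, made by the authors with Cell Ranger 7.0.0 per the file headers. The submitters' processing notes name Cell Ranger, STAR 2.6 and mm10. Barcode calling, intron counting and strand setting are not given in the sources used here.

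The 33 genes, role groups and related lists were chosen with earlier results of these data known. Barcodes stayed in when 500 or more genes were detected and mitochondrial UMIs did not exceed 5%. The automatic Scrublet threshold marked 0 or 1 barcodes per library, so the top 0.8% per 1000 barcodes by doublet score were removed instead (326 to 702 per library). Clusters (scanpy 1.11.5, Leiden with leidenalg 0.10.2, 40 components, 3000 variable genes, resolution 1.0) were formed without the 33 genes and named from marker lists that exclude them. A mixed cluster of 803 nuclei with oligodendrocyte and neuron markers stayed unnamed and out of every class. Lineage nuclei were clustered again at resolution 0.6.

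For each class the counts of a library's nuclei were added up, and the times were compared by edgeR 4.0.16 (quasi-likelihood F test, filterByExpr, TMM, robust, in R 4.3.3), with Benjamini-Hochberg adjustment over all genes tested and a threshold of 0.05. The script was tested on simulated counts. A class-by-time term gave differences between classes. DESeq2 1.42.0, other filters and each library left out were alternatives, and those on sub-clusters and on free RNA were chosen after seeing the data. Shares were compared by exact two-sided permutation tests over libraries, and their 95% intervals are exact binomial ones that cover counting error only. The called members were named in oligodendrocyte-like and OPC-like nuclei and for the class-by-time terms. In oligodendrocyte-like nuclei the 2 of smallest p in each role group and up to 4 genes of each related list were named. For low-UMI barcodes, neuron-like nuclei and all kept nuclei, values are given for only some of the called members. Same-numbered libraries of the times did not deviate together (correlations of -0.022 to 0.022), so the numbers were not used as pairs. Gene positions are those of GENCODE M21, to which all 33 genes matched by identifier.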

Additional observations from a re-analysis of the deposited data

Results flagged for a closer look

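The change from ZT8 to ZT20 differed between oligodendrocyte-like and neuron-like nuclei for 15 of the 33 genes, by the class-by-time term of the edgeR fit. The values here are the change in oligodendrocyte-like nuclei minus that in neuron-like nuclei, on the log2 scale. Among sheath proteins the difference was 0.32 for Mobp, 0.60 for Mag, 0.39 for Mal, 0.51 for Opalin and 0.40 for Cldn11. It was -0.29 for Cnp. Among lipid enzymes it was 0.63 for Fa2h, 0.47 for Ugt8a, 0.70 for Aspa and 0.81 for Enpp6. Prr5l had the largest value, 1.03, and Ndrg1 had 0.32. Anln and Trf had 0.83 and 0.68. St18 had -0.78. The calls of Cnp and Enpp6 were lost whichever library was left out. Over all neuron-like nuclei these genes stood below their level in low-UMI barcodes, but in the cluster led by Ebf2 and Il1rapl2 Prr5l (36.6 CPM against 28.2) and St18 (51.7 against 48.0) stood above it, and the part of free RNA in these differences was not tested.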

How the results depend on the processing

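In oligodendrocyte-like nuclei the count of members called higher (5) was 2 with DESeq2, 3 with no filter on low counts, 3 with the replicate number as a block, 2 to 3 with 1 library left out, 3 in sub-cluster 2 only and 2 with free RNA subtracted. The count called lower (7) was 11 with doublets kept and 4 in sub-cluster 2 only. In OPC-like nuclei the count called higher (1) was 0 with DESeq2, 0 under a stricter filter on nuclei (1000 genes, 1% mitochondrial UMIs), and 0 to 1 with 1 library left out. The count called lower (0) was 1 with no filter, 5 with the replicate block and 0 to 6 with 1 library left out. For oligodendrocyte-like minus neuron-like nuclei the count lower (2) was 1 with RLE normalization and 1 with any library left out. For oligodendrocyte-like minus OPC-like nuclei the count higher (0) was 0 to 4 with 1 library left out. The other 109 counts and shares under an alternative stayed within 1.5 times their value or within 1 SD. Of the values of single genes that were called in the main fit or in the alternative, 3 changed sign. Changes of sign where neither value was called also occurred and are not counted here. Car2 in low-UMI barcodes was -0.21 with named classes included (0.04 without). In oligodendrocyte-like nuclei Tcf7l2 was 0.24 with free RNA subtracted, and Tnr was 0.0084 in nuclei chosen by marker UMIs, of which Tnr is itself a marker. The cause of these shifts was not tested. With 2 libraries at each time, and 482 to 971 oligodendrocyte-like but 129 to 145 OPC-like nuclei per library, OPC-like values are the less precise.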
